A study of Mus musculus with 18 samples.

Results

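A set of 10 genes that coat, fuse or build lipid droplets was followed through 3 mouse fat depots: the 5 perilipins Plin1 to Plin5, the CIDE genes Cidec and Cideb, the fat storage-inducing genes Fitm1 and Fitm2, and the seipin gene Bscl2. They were found by their symbols, and all 10 were listed in every one of the 18 samples, among 45151 symbols that had a row in each kind of table. The samples were 6 of inguinal white adipocytes (iWAT), 6 of epididymal white adipocytes (eWAT) and 6 of brown adipose tissue (BAT), all from wild-type male C57BL/6J mice of 16 weeks on regular chow. The white adipocytes had been freed with collagenase, floated and washed, whereas BAT was extracted as whole tissue, so that depot and preparation cannot be told apart in any comparison with BAT; another label of the BAT samples calls them adipocytes. The labels number the mice but do not say which samples came from the same animal. Within a depot the numbers are the only sign that samples came from separate animals, so p-values measure the spread between these samples.

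A fat cell keeps its triglyceride in lipid droplets, which are cores of neutral lipid inside a single layer of phospholipid. Perilipins bind that surface: Plin1 is the main coat of the adipocyte droplet and holds back lipolysis until protein kinase A phosphorylates it, Plin2 coats droplets in most cell types, Plin3 and Plin4 move from the cytosol to growing droplets, and Plin5, known from oxidative tissues such as heart and brown fat, ties droplets to mitochondria. CIDE proteins pass lipid from small to large droplets at the sites where droplets touch; Cidec favours the large unilocular droplet of white fat. Fitm proteins and seipin sit in the endoplasmic reticulum, where droplets arise.

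The genes with the most opposed depot patterns were a pair of neighbours and a pair of relatives. The rows of Plin4 (chr17:56240014-56245053, minus strand, mm9) and Plin5 (chr17:56251024-56257019, minus strand, mm9) lie 5970 bases apart with no other annotated row between them. Cidec (chr6:113374628-113385754, minus strand, mm9) and Cideb (chr14:56372882-56377295, minus strand, mm9) belong to the CIDE family. The 250 bases before a RefSeq transcription start of each of these opposed genes are shown (the upstream start for Plin5 and Cidec). They are in build GRCm38.p6, minus strand, which is not the build of the read tables. For Plin4 the RefSeq start lies upstream of the row counted here, on the side of Plin5, so the bases shown do not adjoin that row. Capitals mark matches on either strand to the TATA box TATAAA, the CCAAT box (letters CCAAT), the GC box GGGCGG, the E-box CACGTG or the nuclear receptor motif AGGTCA, which is the core of the sites of PPARG.
Plin4, chr17:56109783-56110032: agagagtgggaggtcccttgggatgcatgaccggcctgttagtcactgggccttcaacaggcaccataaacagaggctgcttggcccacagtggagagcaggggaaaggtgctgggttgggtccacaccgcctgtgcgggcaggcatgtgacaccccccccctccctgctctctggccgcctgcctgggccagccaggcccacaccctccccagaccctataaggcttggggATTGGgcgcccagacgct
Plin5, chr17:56117549-56117798: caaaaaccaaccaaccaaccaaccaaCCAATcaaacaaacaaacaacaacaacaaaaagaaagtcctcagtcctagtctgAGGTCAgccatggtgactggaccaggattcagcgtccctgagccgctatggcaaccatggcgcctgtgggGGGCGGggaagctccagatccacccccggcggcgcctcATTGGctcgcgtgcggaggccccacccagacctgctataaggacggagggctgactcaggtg
Cidec, chr6:113435761-113436010: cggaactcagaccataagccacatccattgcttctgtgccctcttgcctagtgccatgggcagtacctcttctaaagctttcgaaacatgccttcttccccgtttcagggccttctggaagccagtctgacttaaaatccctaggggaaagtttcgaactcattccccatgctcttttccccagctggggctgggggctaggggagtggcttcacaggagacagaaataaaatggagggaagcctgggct
Cideb, chr14:55758425-55758674: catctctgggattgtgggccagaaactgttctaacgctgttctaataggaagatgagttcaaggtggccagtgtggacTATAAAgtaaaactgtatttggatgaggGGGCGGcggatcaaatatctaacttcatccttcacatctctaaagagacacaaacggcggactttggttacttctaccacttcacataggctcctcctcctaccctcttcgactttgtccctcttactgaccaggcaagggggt
The Plin5 sequence held AGGTCA 170 bases before the start, CCAAT on each strand and GGGCGG. The Cideb sequence held TATAAA 172 bases before the start and GGGCGG 144 bases before it. The Plin4 sequence held CCAAT 18 bases before the start and none of the others, and the Cidec sequence held none of the 5 motifs. The search ran on windows of 300 bases that reach 50 bases past the start. AGGTCA was found in 16.3% of all 32851 windows, CCAAT in 37.4%, GGGCGG in 35.7%, TATAAA in 13.6% and CACGTG in 7.15%. The 10 genes had 14 windows, of which 4 held AGGTCA (in Plin2, Plin5 and Bscl2), 5 CCAAT, 7 GGGCGG, 1 TATAAA (in Cideb) and 1 CACGTG (in Plin2). The last motif searched, AGGTCANAGGTCA, is the direct repeat bound by PPARG and RXRA and contains AGGTCA; it was in none of the 14 and in 0.0396% of all windows.

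Expression was read as RPKM (reads scaled to the length of the row and to the depth of the sample, as deposited) and as read counts. Between 22929576 and 34512470 reads stood behind each sample. The iWAT and BAT tables give 1 merged row per gene, while the eWAT table gives a row per transcript, and the most-read transcript was taken there. The row had the same length in both kinds of table for Plin3, Plin4 and Fitm1, whereas the eWAT row was 0.763 times as long for Plin1, 0.535 times for Plin2, 0.668 times for Fitm2, 0.476 times for Bscl2 and 0.787 to 0.954 times for Cideb, Cidec and Plin5. A difference between eWAT and another depot can therefore be a difference in counting. For members whose rows differ in length, such differences are given below both from counts and from counts corrected for row length. For other genes the corrected value is given where stated. All 6 adipocyte markers had reads in each depot. Their summed RPKM was 15784 to 20338 in iWAT, 10927 to 20069 in eWAT and 5583 to 6826 in BAT. A lower level in BAT is therefore not particular to droplet genes. The summed RPKM of 7 brown adipocyte markers was 3075 to 3805 in BAT, 84.9 to 132 in iWAT and 14.5 to 29.1 in eWAT.

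Cidec was the most abundant of the 10 transcripts in each depot. In iWAT the mean levels (RPKM ± SD, n = 6) ran from Cidec (1233 ± 249) over Plin4 (841 ± 216), Plin1 (521 ± 43.1), Plin2 (84.3 ± 12.5), Fitm2 (37.2 ± 3.87), Bscl2 (31.2 ± 3.04), Plin3 (12.3 ± 1.46) and Plin5 (4.76 ± 1.05) to Cideb (0.242 ± 0.0945) and Fitm1 (0.0792 ± 0.0896). The ranges of Cidec and Plin4, of Fitm2 and Bscl2, and of Cideb and Fitm1 overlapped, and the other neighbours in this order did not. In eWAT the order of the means differed only in that Bscl2 (51.5 ± 11.7) stood before Fitm2 (49.1 ± 11.6). Ranges there overlapped between Plin4 (636 ± 171), Plin1 (474 ± 129) and Plin2 (199 ± 152), between Bscl2 and Fitm2, and between Cideb and Fitm1, and not between Cidec (1625 ± 505) and Plin4. BAT had a flatter order, from Cidec (256 ± 51.2), Plin1 (230 ± 15.9), Plin2 (142 ± 22.6), Plin4 (115 ± 9.97) and Plin5 (56.9 ± 7.54) to Fitm2 (30.3 ± 3.31), Plin3 (18.4 ± 2.38), Bscl2 (18.1 ± 2.07), Cideb (2.75 ± 0.602) and Fitm1 (1.37 ± 2.65). There the ranges of Cidec and Plin1, of Plin2 and Plin4, of Plin3 and Bscl2, and of Cideb and Fitm1 overlapped.

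**Figure D1:**
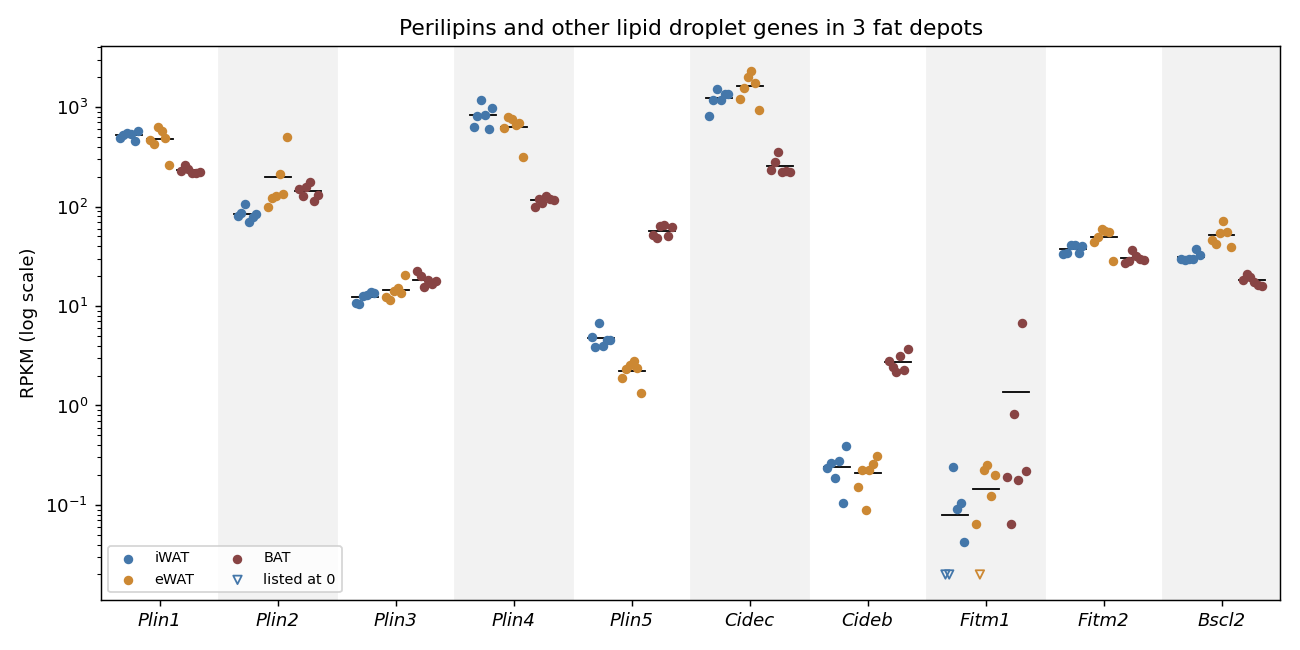
RPKM of the 10 genes on a log axis, with 1 point per sample (6 per depot), a black line at each depot's mean and open triangles for values listed at 0. Plin4 and Cidec lie higher in both sets of white adipocytes than in BAT, Plin5 and Cideb lie higher in BAT, and Fitm1 is near the bottom of the axis except for BAT mouse 12 at 6.74.

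The differences between depots were tested with edgeR's quasi-likelihood test on read counts, adjusted over all rows tested by the Benjamini-Hochberg method, and a gene was called at an adjusted p below 0.05. Between iWAT and BAT, 8 of the 9 genes with enough reads were called, 4 higher in iWAT (Plin1, Plin4, Cidec, Bscl2) and 4 lower (Plin2, Plin3, Plin5, Cideb). These depots differed broadly: 67.6% of all rows tested were called, 6711 higher and 6626 lower in iWAT, so the number called is near the background. At least 2-fold changes were called in 5 of the 9, beside 32.2% of all rows. The median size of the log2 fold change was 1.02 over the 9 genes and 0.61 over 19046 symbols. Between eWAT and BAT, 6 of 9 were called, beside 70.3% of all symbols tested, with Plin4 and Cidec higher and Plin2, Plin3, Plin5 and Cideb lower in eWAT. At least 2-fold changes numbered 4 of 9, beside 38.9%. Between the white depots 3 of 9 were called (Plin1, Plin5 and Bscl2, each higher in iWAT), beside 25.6% of all symbols tested, and 1 of 9 by at least 2-fold, beside 10.7%. With row length taken into account, 5 of the 9 were higher and 3 lower in eWAT than in BAT, beside 76.9% of all symbols called (9775 higher, 4356 lower). For iWAT over eWAT 1 was then higher and 3 lower, beside 52.5% of all symbols (1032 higher, 8612 lower). The comparisons share samples, so they do not check each other.

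**Figure D2:**
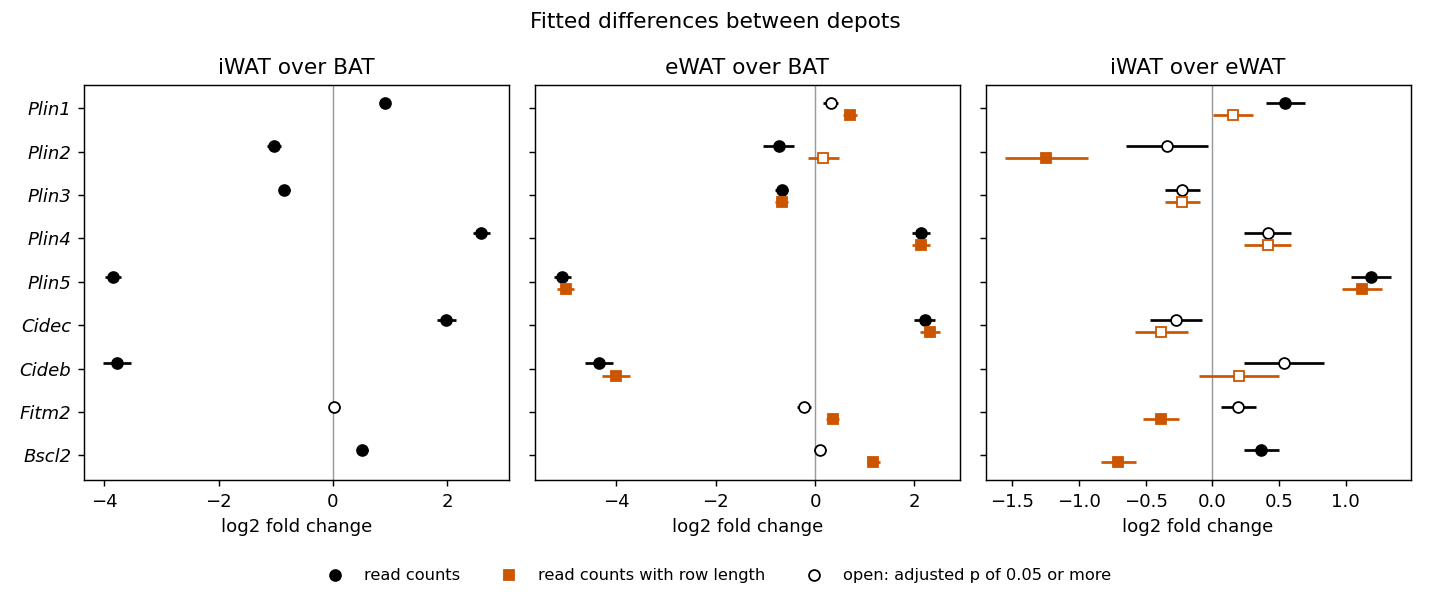
Fitted log2 fold changes (± SE) of the 9 genes tested, for iWAT over BAT (6 and 6 samples), eWAT over BAT and iWAT over eWAT (all 18 samples in the fit), with each panel on its own x axis. Circles are read counts, squares counts corrected for row length, and open symbols have an adjusted p of 0.05 or more; Plin4 (2.60 and 2.14) and Plin5 (-3.85 and -5.08) lie far to opposite sides against BAT, while Plin2, Fitm2 and Bscl2 change place with the correction.

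The scale of the values moved all genes together. The median over all rows of the log2 difference was 0.01 for iWAT over BAT from counts and 0.24 on the RPKM scale, where 9086 rows were called higher and 4856 lower. For eWAT over BAT it was 0.03 from counts, 0.48 with row length and 0.71 on the RPKM scale, with 6541 higher and 6375 lower from counts, 9775 and 4356 with row length and 11492 and 3274 on the RPKM scale. For iWAT over eWAT it was 0.00279 from counts, -0.38 with row length and -0.34 on the RPKM scale, with 2462 higher and 2252 lower from counts, 1032 and 8612 with row length and 995 and 8630 on the RPKM scale. Values with row length are given below as fitted and, where a direction rests on them, relative to these medians. Against a minimum fold of 1.5 the calls of Bscl2 (iWAT over BAT, adjusted p = 0.803), Plin2 and Plin3 (eWAT over BAT, adjusted p = 0.260 and 0.199), and Plin1 and Bscl2 (iWAT over eWAT) were lost.

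Plin1, the coat protein that gates lipolysis in adipocytes, was higher in iWAT than in BAT. Its RPKM was 451 to 569 (median 531) in iWAT, 261 to 635 (median 475) in eWAT and 215 to 258 (median 225) in BAT. In RPKM every white adipocyte sample was above every BAT sample, by the least in eWAT mouse 15. The eWAT row is 0.763 times as long as the merged row, so this order can depend on the row. By reads, eWAT mouse 15 had 16393 of 32782695, while BAT mouse 11 had more, 16526 of only 30531973. The log2 fold change for iWAT over BAT was 0.91 ± 0.09 (SE; 1.88-fold, edgeR adjusted p = 7.20e-07). For eWAT over BAT it was 0.31 ± 0.15 (adjusted p = 0.0648) from counts, 0.70 ± 0.15 (adjusted p = 0.000278) with row length, which is 0.22 above the median of all symbols, and 0.43 ± 0.10 (adjusted p = 0.00131) without eWAT mouse 15. Set against eWAT, iWAT was at 0.55 ± 0.15 (adjusted p = 0.0107) from counts and 0.15 ± 0.15 (adjusted p = 0.404) with row length, which is 0.54 above that median. With the reads of all transcripts of a symbol summed, eWAT over BAT was 0.56 (adjusted p = 0.00203) and iWAT over eWAT 0.32 (adjusted p = 0.0584). In eWAT such a sum can count a read on several transcripts, so it also depends on how many transcripts are listed for a gene.

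Plin4, a perilipin abundant in white fat, had the largest fitted excess in iWAT over BAT among the 9 genes tested. Its RPKM was 599 to 1170 (median 827) in iWAT, 312 to 795 (median 673) in eWAT and 99.0 to 128 (median 117) in BAT. The white and brown ranges were far apart, and the white ranges overlapped. Its log2 fold change was 2.60 ± 0.14 for iWAT over BAT (6.06-fold, edgeR adjusted p = 1.96e-09) and 2.14 ± 0.18 for eWAT over BAT (4.40-fold, adjusted p = 7.07e-09), with the same row in all depots. With the reads of all transcripts of a symbol summed, the value for eWAT over BAT was 0.80 and that for iWAT over eWAT 1.78 (adjusted p = 6.51e-08). The eWAT table lists 3 Plin4 transcripts against 1 merged row, so these sums cannot tell the number listed from the depot. From the single row, iWAT over eWAT was at 0.41 ± 0.18 (adjusted p = 0.0950), with a 95% interval of 0.07 to 0.76 before adjustment; without iWAT mouse 14 it was 0.49 and passed (adjusted p = 0.0473).

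Plin5, the perilipin of oxidative tissues, had the opposite pattern. Its RPKM was 3.86 to 6.75 (median 4.57) in iWAT, 1.35 to 2.78 (median 2.36) in eWAT and 48.3 to 64.6 (median 56.9) in BAT. The 3 ranges did not overlap. The log2 fold change was -3.85 ± 0.14 for iWAT over BAT (14.4-fold lower, edgeR adjusted p = 4.60e-11) and -5.08 ± 0.17 for eWAT over BAT (33.9-fold lower, adjusted p = 2.36e-14), the latter -5.02 with row length. Between the white depots it was higher in iWAT, by 1.19 ± 0.15 over eWAT (2.28-fold, adjusted p = 1.81e-05) from counts and by 1.12 ± 0.15 (adjusted p = 3.66e-06) with row length. In counts it was covered by 199 to 453 reads in iWAT, 88 to 167 in eWAT and 3271 to 4116 in BAT.

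The neighbours Plin4 and Plin5 thus stood in very different ratios in each sample. The RPKM of Plin4 was 179 ± 41.4 times that of Plin5 in iWAT, 286 ± 43.5 times in eWAT and 2.05 ± 0.298 times in BAT (SD, n = 6). The ratio ranged from 129 to 218 in iWAT, from 232 to 339 in eWAT and from 1.71 to 2.47 in BAT.

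Plin2, the perilipin found in most cell types, was lower in iWAT than in BAT. Its RPKM was 69.3 to 107 (median 82.7) in iWAT, 114 to 175 (median 139) in BAT and 99.7 to 499 (median 132) in eWAT. The iWAT and BAT ranges did not overlap, and the 499 of eWAT mouse 15 stood apart from 99.7 to 212 in the other 5 eWAT samples. Its log2 fold change for iWAT over BAT was -1.02 ± 0.12 (2.03-fold lower, edgeR adjusted p = 3.39e-06). For eWAT over BAT it was -0.73 ± 0.31 (adjusted p = 0.0408) from counts and 0.17 ± 0.31 (adjusted p = 0.622) with row length, which is -0.31 relative to the median of all symbols, so that its sign depends on the scale. Without eWAT mouse 15 it was -1.28 ± 0.16 (adjusted p = 1.29e-06), while the call was lost in 8 of the 12 fits that left out 1 sample, such as -0.57 ± 0.30 (adjusted p = 0.0985) without eWAT mouse 7. Between the white depots, iWAT over eWAT, it was -0.34 ± 0.31 (adjusted p = 0.447) from counts, -1.24 ± 0.31 (adjusted p = 0.00224) with row length, and 0.20 ± 0.16 (adjusted p = 0.386) from counts without eWAT mouse 15. The value with row length is -0.86 relative to the median of all symbols.

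Some Plin2 reads may be shared with a pseudogene. Gm12551 (chr4:86272979-86277155, minus strand, mm9; pseudogene in the GENCODE annotation) lies 17134 bases from the Plin2 row (chr4:86294290-86315964, minus strand, mm9), and 19.4% of the 36-base windows in its 726 exonic bases also occur in Plin2 transcripts. It had 467 to 966 reads in iWAT and 1064 to 1610 in BAT. That was 7.23% to 9.18% of the Plin2 reads in iWAT and 8.13% to 8.93% in BAT. How reads that fit both places were counted is not given in the sources used here.

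Plin3, which joins droplets from the cytosol, was lower in iWAT than in BAT. Its RPKM was 10.4 to 13.9 (median 12.7) in iWAT, 11.5 to 20.3 (median 13.8) in eWAT and 15.6 to 22.3 (median 18.1) in BAT. The iWAT range was below that of BAT, while the eWAT range reached into it through mouse 15. The log2 fold change was -0.85 ± 0.10 for iWAT over BAT (1.80-fold lower, edgeR adjusted p = 5.15e-06) and -0.67 ± 0.13 for eWAT over BAT (1.59-fold lower, adjusted p = 0.000188). For iWAT over eWAT it was -0.23 ± 0.13 (adjusted p = 0.226). Row length leaves this value as it is, since the row is the same. On that scale it is 0.16 above the median of all symbols. With the reads of all transcripts of a symbol summed, eWAT over BAT was -0.21 ± 0.13 and no longer called (adjusted p = 0.158), while iWAT over eWAT was -0.66 ± 0.14 and called (adjusted p = 0.000276).

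Added up, the 5 perilipins came to 1463 ± 263 RPKM in iWAT, 1326 ± 164 in eWAT and 563 ± 29.8 in BAT (SD, n = 6), with the white ranges (1146 to 1848 and 1094 to 1532) above that of BAT (519 to 602). Plin4 made up 56.8% ± 4.37 of this sum in iWAT, 47.5% ± 10.2 in eWAT and 20.5% ± 1.81 in BAT. Plin5 made up 10.1% ± 1.14 in BAT but 0.330% ± 0.0665 in iWAT and 0.165% ± 0.0231 in eWAT. The share of Plin1 differed less, at 36.2% ± 3.75, 35.2% ± 6.53 and 41.0% ± 3.02, and its range in BAT (35.8% to 45.0%) overlapped those of both white depots. Plin2 took 5.84% ± 0.809 in iWAT and 25.2% ± 2.95 in BAT, and in eWAT 45.6% in mouse 15 against a lowest share of 8.35%. As a share of reads, which weights long rows more, Plin4 made up 67.5%, 65.6% and 27.8% of the perilipins in iWAT, eWAT and BAT, and Plin5 0.194%, 0.108% and 6.77%. Plin2, whose eWAT row is 0.535 times as long as the merged row, made up 5.80%, 10.6% and 28.5% of reads. In eWAT mouse 15 Plin2 had fewer reads than Plin4 (30889 against 43322), although its share of RPKM was larger. In RPKM Plin3 took 0.865% ± 0.190 in iWAT, 1.12% ± 0.368 in eWAT and 3.28% ± 0.452 in BAT.

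**Figure D3:**
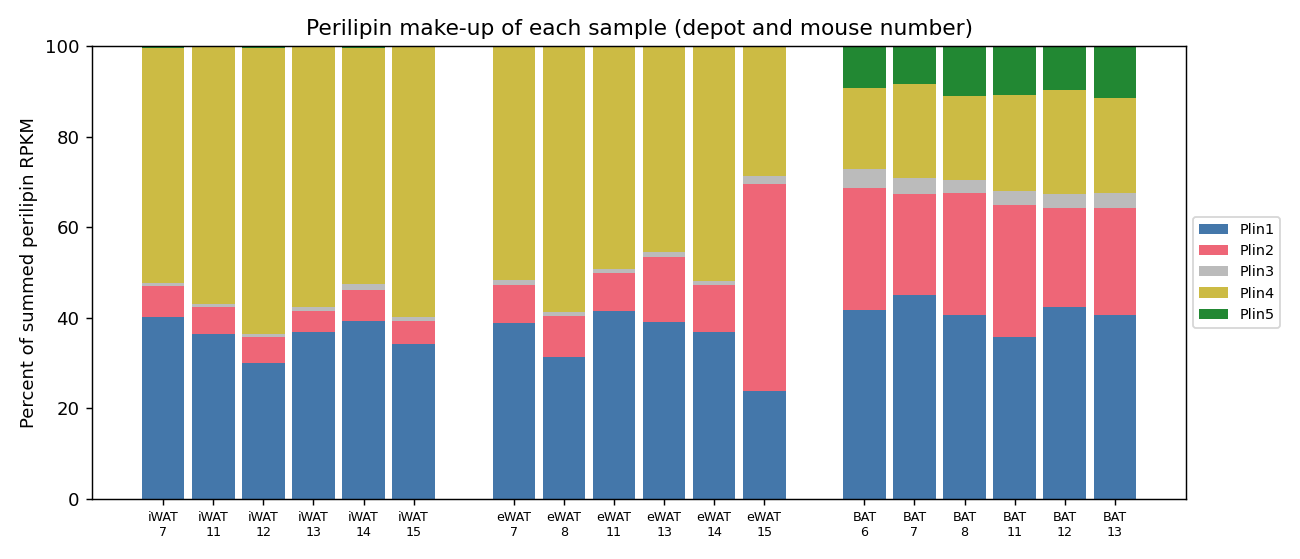
Share of each perilipin in the summed perilipin RPKM, as stacked bars from 0 to 100% with 1 bar per sample, named by depot and mouse number. Plin4 fills 51.8% to 63.3% of the iWAT bars and 17.9% to 22.9% of the BAT bars, Plin5 is visible in BAT only (8.42% to 11.4%), and Plin2 fills 45.6% of the bar of eWAT mouse 15. The eWAT row of Plin2 is 0.535 times as long as its merged row.

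Of the CIDE pair, Cidec was higher in white adipocytes and Cideb higher in BAT. Cidec, the CIDE protein of large droplets, had an RPKM of 806 to 1535 (median 1262) in iWAT, 931 to 2296 (median 1655) in eWAT and 220 to 351 (median 232) in BAT. Every white sample was far above every brown sample. Its log2 fold change was 1.99 ± 0.17 for iWAT over BAT (3.96-fold, edgeR adjusted p = 1.54e-07) and 2.21 ± 0.21 for eWAT over BAT (4.62-fold, adjusted p = 2.07e-08; 2.32 with row length). Between the white depots, iWAT over eWAT, it was -0.27 ± 0.20 (adjusted p = 0.336), with a 95% interval of -0.66 to 0.11. With row length it was -0.38 ± 0.20 (adjusted p = 0.115), which is only -1.8e-05 relative to the median of all symbols.

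Cideb, best known for droplet and lipoprotein lipidation in liver, was scarce in each depot. Its RPKM was 0.105 to 0.388 (median 0.247) in iWAT, 0.0880 to 0.311 (median 0.225) in eWAT and 2.15 to 3.72 (median 2.60) in BAT. These levels rest on 5 to 15 reads per sample in iWAT, 3 to 12 in eWAT and 86 to 165 in BAT, and the brown range lay above both white ranges. Cideb reached the 10 reads in 6 samples needed for the test only through BAT. Its calls against BAT are therefore tied to the filter. The log2 fold change was -3.77 ± 0.24 for iWAT over BAT (13.7-fold lower, edgeR adjusted p = 8.59e-09) and -4.36 ± 0.28 for eWAT over BAT (20.5-fold lower, adjusted p = 1.28e-10; -4.01 with row length). For iWAT over eWAT it was 0.54 ± 0.30 (adjusted p = 0.203) from counts and 0.20 ± 0.30 (adjusted p = 0.644) with row length. The latter is 0.58 above the median of all symbols. With all transcripts summed it was 1.10 ± 0.33 (adjusted p = 0.00571), a value that also depends on how many transcripts are listed. The Cideb row overlaps 2610027L16Rik on the opposite strand by 1590 bases, and whether strand was used in counting is not given in the sources used here; that gene was at 2.53 RPKM in iWAT and 2.64 in BAT. The 4 hepatocyte markers summed to 9.47 to 13.1 RPKM in iWAT, 1.79 to 3.91 in eWAT and 0.480 to 1.18 in BAT. Means in iWAT, eWAT and BAT were 10.2, 2.45 and 0.0250 for Alb, 0.697, 0.593 and 0.0645 for Serpina1a and, in the other direction, 0.232, 0.219 and 0.841 for Apoa2, and Ttr had 1 read over all samples. The part of hepatocyte RNA in Cideb was not tested.

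Cidea, the CIDE gene of brown fat, is no member of the set but completes the family. Its level was 20.2 ± 4.07 RPKM in iWAT, 2.12 ± 0.827 in eWAT and 711 ± 67.8 in BAT (SD, n = 6). Its log2 fold change was -5.40 ± 0.16 for iWAT over BAT (42.2-fold lower, edgeR adjusted p = 1.02e-11), -8.73 ± 0.29 for eWAT over BAT and 3.28 ± 0.23 for iWAT over eWAT. Cidec exceeded Cidea 64.0 ± 19.8 times in iWAT and 819 ± 222 times in eWAT, and Cidea exceeded Cidec 2.85 ± 0.490 times in BAT.

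The Fitm genes encode endoplasmic reticulum proteins needed for droplets to bud. Fitm2, the widely expressed form, had an RPKM of 33.3 to 41.3 (median 36.8) in iWAT, 28.3 to 59.4 (median 52.7) in eWAT and 26.9 to 36.2 (median 29.5) in BAT, with overlapping ranges. From counts the log2 fold change was 0.02 ± 0.10 for iWAT over BAT (edgeR adjusted p = 0.846), with a 95% interval of -0.17 to 0.21. It was -0.22 ± 0.13 for eWAT over BAT (adjusted p = 0.145) and 0.20 ± 0.13 for iWAT over eWAT (adjusted p = 0.306). With row length both changed sign, to 0.36 ± 0.13 (adjusted p = 0.0212) and -0.39 ± 0.13 (adjusted p = 0.0212), which are -0.12 and -0.0044 relative to the medians of all symbols. The Fitm2 row overlaps 2310001K24Rik on the opposite strand by 112 bases.

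Fitm1, the form of skeletal muscle and heart, was at the limit of detection. It had 0 to 7 reads per sample in iWAT and in eWAT, with 2 iWAT samples and 1 eWAT sample at 0; a count of 0 allows up to 3 reads, or 0.0966 to 0.143 RPKM in these depots, counting error only. In BAT its RPKM was 6.74 (191 reads) in mouse 12, 0.821 in mouse 8 and 0.0640 to 0.222 in the other 4. It had too few reads for the test as filtered. With a filter of 1 read in 1 sample it was called for iWAT over BAT (edgeR log2 fold change -4.15 ± 1.10, adjusted p = 0.00495), on 13 reads over the iWAT samples and 230 over BAT, and for eWAT over BAT (-3.49 ± 0.97, adjusted p = 0.00541). Without BAT mouse 12 the former was -1.93 ± 0.72 (adjusted p = 0.0404), and the latter was not fitted without it. BAT mouse 12 had a summed RPKM of 1340 over the 5 skeletal muscle markers, while the other 5 BAT samples had 0.550 to 119, and all 5 (Acta1, Ckm, Myh4, Tnnt3, Mylpf) were highest there. The iWAT sample with the highest Fitm1 (mouse 12, 0.239 RPKM) also had the highest muscle sum of its depot (73.3, against 4.97 to 46.8); the part of muscle RNA in Fitm1 was not tested. In bulk RNA, fewer cells of a type and less RNA per cell cannot be told apart. The Fitm1 row overlaps an unnamed gene on the opposite strand (ENSMUSG00000086341, 4.98 RPKM in BAT) by 318 bases.

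Bscl2, which encodes seipin, the protein of the endoplasmic reticulum that shapes nascent droplets, was higher in iWAT than in BAT. Its RPKM was 28.9 to 37.0 (median 29.8) in iWAT, 39.1 to 71.5 (median 50.4) in eWAT and 15.8 to 21.2 (median 17.8) in BAT, and the 3 ranges did not overlap. For iWAT over BAT the log2 fold change was 0.52 ± 0.10 (1.43-fold, edgeR adjusted p = 0.000467). The eWAT row is the shortest relative to the merged row here, and the values turn on it. For eWAT over BAT the log2 fold change was 0.10 ± 0.13 (adjusted p = 0.492) from counts and 1.17 ± 0.13 (adjusted p = 1.51e-07) with row length, 0.69 above the median of all symbols. In iWAT over eWAT it was 0.37 ± 0.13 (adjusted p = 0.0428) from counts and -0.70 ± 0.13 (adjusted p = 0.000134) with row length, -0.32 relative to the median; the call from counts was lost in 9 of the 12 leave-outs of a sample. The Bscl2 row also overlaps Gng3 on the opposite strand by 1780 bases, a gene at 1.40 RPKM in iWAT and 0.996 in BAT.

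The sample of eWAT mouse 15 had the lowest level of 6 of the 10 genes among the eWAT samples (Plin1, Plin4, Plin5, Cidec, Fitm2, Bscl2) and the highest of 3 (Plin2, Plin3, Cideb). The summed RPKM of the 6 macrophage markers was 1842 in it and 125 to 437 in the other 5, and all 6 markers were highest there; Cd68 stood at 306 RPKM and Lyz2 at 1320. Its adipocyte marker sum was the lowest, 10927 against 17463 to 20069. Plin2 was second highest (212 RPKM) in eWAT mouse 13, which also had the second highest macrophage sum (437). In the other depots the sample with the highest macrophage sum had Plin2 below the depot's median. These were iWAT mouse 7 (sum 125, Plin2 80.9, median 82.7) and BAT mouse 13 (48.5, 129 and 139). The part of macrophage RNA in these levels was not tested. Without eWAT mouse 15, Plin4, Plin5, Cidec and Cideb differed between eWAT and BAT by log2 fold changes of 2.27, -4.98, 2.32 and -4.52 from counts, each called. The macrophage sum was 22.8 to 125 in iWAT and 20.3 to 48.5 in BAT. Epididymal markers summed to 73.6 RPKM in eWAT mouse 14, 63.0 in mouse 15 and 0.0423 to 3.57 in the other 4, and to at most 0.157 in the other depots.

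**Figure D4:**
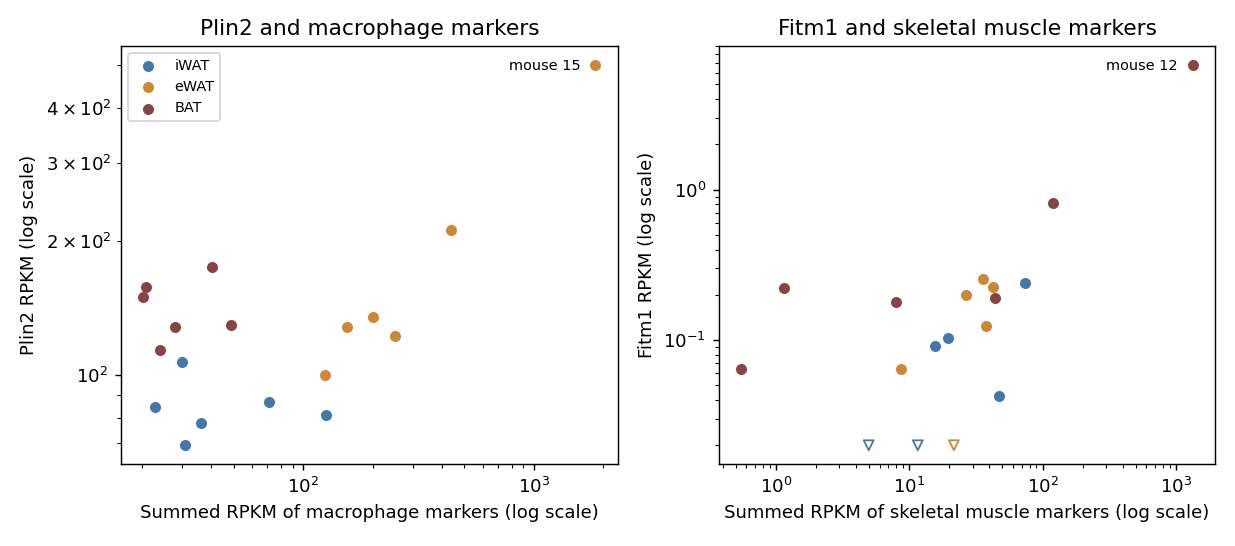
RPKM of Plin2 against the summed RPKM of 6 macrophage markers (left) and of Fitm1 against that of 5 skeletal muscle markers (right), both on log axes with 1 point per sample of each depot and open triangles for Fitm1 listed at 0. The point of eWAT mouse 15 (Plin2 at 499, markers at 1842) and the point of BAT mouse 12 (Fitm1 at 6.74, markers at 1340) stand apart at the upper right.

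Other genes of the droplet were counted from lists, with counts against eWAT given first from read counts and then with row length. Of 16 further droplet surface genes, 15 had enough reads, and 6 were higher and 4 lower in iWAT than in BAT, 6 higher and 5 lower in eWAT than in BAT, and 3 higher and 0 lower in iWAT than in eWAT. Over all rows or symbols tested 67.6%, 70.3% and 25.6% were called, so these counts are near the background. With row length 11 were higher and 3 lower in eWAT than in BAT (76.9% of all symbols called), and 1 higher and 10 lower in iWAT than in eWAT (52.5% of all symbols called, 1032 higher and 8612 lower). Hilpda, an inhibitor of the lipase ATGL that sits on droplets, was at 39.2 ± 16.1 RPKM in iWAT and 55.5 ± 31.4 in eWAT against 2.05 ± 0.350 in BAT (16.0-fold and 19.4-fold higher, edgeR adjusted p = 1.23e-08 and 5.52e-09). The methyltransferase gene Mettl7b had 826 reads over the iWAT samples, 1286 over eWAT and 10 over BAT. Clstn3, whose locus also gives a droplet-restricting protein of brown fat, went the other way, with 5.69 ± 0.419, 4.61 ± 1.65 and 38.2 ± 4.01 RPKM in iWAT, eWAT and BAT (log2 fold changes against BAT -3.02 ± 0.09 and -3.70 ± 0.19). Between iWAT and eWAT Clstn3 was at 0.64 ± 0.17 from counts (edgeR adjusted p = 0.00963) and at 0.33 ± 0.17 with row length (adjusted p = 0.114), which is 0.71 above the median of all symbols, and Cidea was at 3.28 in both.

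Of 6 genes that assemble droplets and their triglyceride, 2 were higher and 2 lower in iWAT than in BAT (67.6% of all rows called), and 2 higher and 4 lower in eWAT than in BAT (70.3%), or 3 higher and 1 lower with row length (76.9%). Tmem159, which encodes the seipin partner promethin, was higher in both (log2 fold changes 1.56 ± 0.13 and 1.44 ± 0.14), as was the diacylglycerol acyltransferase gene Dgat2 (0.55 ± 0.14 and 0.72 ± 0.16). The acyltransferase gene Agpat2 was lower in both (-1.59 ± 0.15 and -2.03 ± 0.17 from counts). With row length its value in eWAT was -0.73 ± 0.17 (edgeR adjusted p = 0.000689), -1.21 relative to the median of all symbols. Lpin1 was lower in iWAT (-0.50 ± 0.13). Dgat1 was at -1.02 ± 0.15 in eWAT from counts but at -0.33 ± 0.15 (edgeR adjusted p = 0.0582) with row length, -0.81 relative to the median. Between the white depots 2 were called from counts (25.6% of all symbols), Dgat1 (0.90 ± 0.15) and Acsl1 (0.89 ± 0.18), both higher in iWAT. With row length 0 were higher and 4 lower (52.5% of all symbols called, 1032 higher and 8612 lower). Dgat1 was then at 0.21 ± 0.15 and not called, 0.59 above the median of all symbols, and Acsl1 at -0.58 ± 0.17 and called, -0.20 relative to that median.

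Of 6 lipolysis genes that act with the perilipins, 3 were higher and 1 lower in iWAT than in BAT, beside 67.6% of all rows called. Lipe, the hormone-sensitive lipase gene, and Mgll, the monoglyceride lipase gene, were higher in iWAT (0.67 ± 0.09 and 0.92 ± 0.13), as was Abhd5, whose product Plin1 holds back (0.33 ± 0.13, edgeR adjusted p = 0.0338). Prkaca, the catalytic subunit of the kinase that acts on Plin1, was lower (-0.55 ± 0.09). Pnpla2, which encodes ATGL, was at 531 ± 27.0 RPKM in iWAT, 452 ± 122 in eWAT and 428 ± 37.5 in BAT, with a log2 fold change of 0.05 ± 0.08 for iWAT over BAT (adjusted p = 0.629). G0s2, an ATGL inhibitor, was at -0.59 ± 0.29 in that comparison (adjusted p = 0.0858). Between eWAT and BAT, where 70.3% of all symbols were called, 1 was higher (Mgll, 0.77 ± 0.15) and 3 lower (Prkaca -1.02 ± 0.10, G0s2 -0.90 ± 0.29, Pnpla2 -0.57 ± 0.14), while Abhd5 (0.000392 ± 0.13) and Lipe (0.24 ± 0.14) were not called. With row length 3 were higher and 2 lower, beside 76.9% of all symbols. Lipe was then at 0.91 ± 0.14 and called, 0.43 above the median of all symbols. Abhd5 was at 0.35 ± 0.13 and called, but at -0.14 relative to that median, and Pnpla2 at -0.25 ± 0.14 and not called, -0.74 relative to it. Between iWAT and eWAT, with 25.6% of all symbols called, 3 were higher and 0 lower in iWAT: Pnpla2 (0.56 ± 0.14), Prkaca (0.43 ± 0.10) and Lipe (0.38 ± 0.14). With row length 1 was called higher (Prkaca, 0.41 ± 0.10, 0.79 above the median of all symbols) and 1 lower (Mgll, -0.41 ± 0.15, only -0.03 relative to that median), beside 52.5% of all symbols. Lipe was at -0.29 ± 0.14 and not called, 0.10 above the median.

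Of 6 transcriptional regulators known to act on perilipin and CIDE genes, 4 were higher and 2 lower in iWAT than in BAT, beside 67.6% of all rows called. Ppara and Ppargc1a, which drive oxidative genes, were lower in iWAT (-4.07 ± 0.16 and -2.68 ± 0.35) and in eWAT (-5.16 ± 0.23 and -4.18 ± 0.38) than in BAT. Rxra was higher in both (1.48 ± 0.08 and 1.30 ± 0.12), and Ppard was higher in iWAT (0.76 ± 0.15). In eWAT over BAT 1 was higher and 2 lower (70.3% of all symbols called), or 2 and 2 with row length (76.9%). Pparg itself was at 104 ± 10.3 RPKM in iWAT, 99.1 ± 19.9 in eWAT and 73.7 ± 7.95 in BAT, with log2 fold changes of 0.23 ± 0.09 (edgeR adjusted p = 0.0382) and -0.08 ± 0.12 (adjusted p = 0.575) against BAT. Between the white depots 4 were higher and 0 lower in iWAT (25.6% of all symbols called), or 3 and 2 with row length (52.5%), among them Ppargc1a (1.45 ± 0.35) and Ppara (1.04 ± 0.19), and Pparg was at 0.26 ± 0.12 (adjusted p = 0.118).

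The genes most like each member were sought over the 12 iWAT and BAT samples, as Pearson's r of log2 RPKM among 14598 rows; samples of a depot share their depot, so a high r mainly reflects a similar difference between depots. Plin4 was most like Src, Ptrf and Mst1r (r of 0.996 each), Plin1 most like the Amy1/Rnpc3 row, Chst1 and Amy1 (0.996 each), and Cidec most like Cdkn2b, Hipk2 and Gm5627 (0.993, 0.992 and 0.991). Ptrf encodes cavin 1, a coat protein of caveolae. Plin5 was most like Gm5785, Slc27a2 and Ptger1 (0.998, 0.996 and 0.996), Slc27a2 being a fatty acid transporter and very-long-chain acyl-CoA synthetase. Cideb was most like Mavs, Akap1 and A330068G13Rik (0.990, 0.990 and 0.989), Plin3 most like Nfu1, Gm8738 and Mcat (0.979, 0.968 and 0.967), and Bscl2 most like Ppp1r1a, Orm1 and Bre (0.988, 0.988 and 0.987). Plin2 was most like the pseudogene Gm12551 (0.983), then Oplah (0.968) and Chchd4 (0.962), and Fitm2 most like BC046331, Nfe2l1 and Zfyve20 (0.956, 0.932 and 0.931). Fitm1 was most like Csrp3, Mylk2 and Scn4b (0.966, 0.963 and 0.960), of which Csrp3 and Mylk2 are striated muscle genes. Rows in this search had a mean of at least 1 RPKM in iWAT or BAT. Fitm1 reached it only through BAT mouse 12, with 191 of its 230 reads in BAT, and r without that sample was not computed. Cideb reached that mean only through BAT, at 2.75 RPKM against 0.242 in iWAT, where it had 5 to 15 reads per sample.

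With each depot's mean removed, so that only the differences among samples of a depot were left, the nearest genes were others for most members. Plin2 was again nearest to Gm12551 (r = 0.924), Plin5 to Gm5785 (0.907) and Fitm1 to the muscle genes Mylk2 (0.958), Csrp3 (0.952) and Hspb7 (0.951). The Fitm1 values were again not computed without BAT mouse 12. Plin1 was nearest to Pdcd4 (0.916), Plin3 to Tubg1 (0.920), Plin4 to 1110018F16Rik (0.927), Cidec to LOC100503557 (0.911), Cideb to Tcte3 (0.858), Fitm2 to Rg9mtd1 (0.925) and Bscl2 to Gstz1 (0.896). The r of Cideb includes iWAT samples with only 5 to 15 reads each. Each nearest gene is the best of 14598 rows over only 12 samples. How high the best r would be by chance was not tested. Among the members themselves, r within depots over the same 12 samples was 0.704 for Plin2 and Plin5, 0.631 for Plin1 and Plin4, and 0.392 for the neighbours Plin4 and Plin5. In iWAT, mouse 12 had the highest level of 6 of the 10 genes (Plin2, Plin4, Plin5, Cidec, Fitm1, Fitm2).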

How the data were processed

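Adipocyte or tissue RNA from 18 mouse samples was sequenced (NEBNext Ultra RNA libraries, HiSeq). The authors aligned reads to mm9 and counted them with the Genomatix Genome Analyzer; the submitters' processing notes name HISAT2 2.1.0 and cutadapt 1.16. The authors deposited read counts, which are whole reads per row, and RPKM per row. The strand used in counting is not given in the sources used here. There were 53445 merged rows (iWAT, BAT) and 189660 transcript rows (eWAT), where a read can count on several transcripts.

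Counts were tested with edgeR 4.0.16 in R 4.3.3 (quasi-likelihood, TMM, rows reaching 10 reads in 6 or more samples, Benjamini-Hochberg, threshold 0.05): iWAT and BAT samples for iWAT over BAT, and all 18 samples for comparisons with eWAT. Alternatives used limma 3.58.1 on log2(RPKM + 0.1), DESeq2 1.42.0, other filters and row length as an offset. The script was tested on simulated data. For edgeR the SE is the size of the log2 fold change divided by the square root of the F value of its test. Intervals are normal 95% intervals on this SE, which can be narrower than the F test implies. The limits for counts of 0 cover counting error only. Promoters came from RefSeq (GRCm38.p6).

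The genes, lists and tests were chosen with earlier results of these data known. The text names all 10 genes, the 2 most changed genes in each direction of each list with a mean of at least 1 RPKM, Cidea, Pnpla2, Abhd5, G0s2, Lipe and Pparg, and for each gene the 3 most alike rows, or the nearest with depot means removed.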

Additional observations from a re-analysis of the deposited data

Results flagged for a closer look

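For 3 of the 30 gene and depot combinations examined, 1 sample lay far from the other 5 of its depot by Dixon's criterion (the gap to the nearest sample relative to the whole range, at the 95% level); chance alone gives about 1.5 of 30. Plin2 was at 499 RPKM in eWAT mouse 15, against 99.7 to 212 in the others (gap 0.720 of the range). Plin5 was at 6.75 RPKM in iWAT mouse 12, against 3.86 to 4.89 (gap 0.643). Fitm1 was at 6.74 RPKM in BAT mouse 12, against 0.0640 to 0.821 (gap 0.887).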

How the results depend on the processing

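Under the alternatives run, the log2 fold changes kept their direction and their side of the threshold in 198 of 207 cases for iWAT over BAT, 193 of 227 for eWAT over BAT and 186 of 226 for iWAT over eWAT. The number of genes called was 8 in each leave-out of a sample for iWAT over BAT, 5 to 7 for eWAT over BAT and 2 to 3 for iWAT over eWAT. Restricted to rows that are identical in both kinds of table, 2 genes could be tested, of which 2 were called for eWAT over BAT and 0 for iWAT over eWAT. Between iWAT and eWAT 1 gene was called with a minimum fold change of 1.5, and 6 with all transcripts of a symbol summed. Levels and shares also depended on the processing. Mean RPKM was counted as moved in 7 of 10 cases in BAT, 3 of 30 in eWAT and 0 of 10 in iWAT. Perilipin shares were counted as moved in 5 of 5 cases in BAT, 3 of 5 in eWAT and 3 of 5 in iWAT.

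Same-numbered samples did not deviate together (mean r 0.0376 over 4 pairs for iWAT and BAT, -0.0351 over 4 for eWAT and BAT, -0.0965 over 5 for the white depots). Adding the mouse number as a replicate block gave 8, 6 and 1 called genes in the 3 comparisons, against 8, 7 and 1 in the same paired samples without the block, and 1049 against 2424 of all symbols between iWAT and eWAT (4714 with all samples).

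Several signs turned. Fitm2, iWAT over BAT, was -0.047 with a mean RPKM of at least 1, -0.0016 with summed counts as library size, -0.027 with all 18 samples and -0.0091 to 0.11 in leave-outs. On the RPKM scale with pseudocounts of 0.1 and 1, with row length and with transcripts summed, eWAT over BAT was 0.25, 0.25, 0.17 and 0.34 for Plin2 and 0.66, 0.65, 0.36 and 0.29 for Fitm2, and iWAT over eWAT was -0.37, -0.36, -0.39 and -0.29 for Fitm2 and -0.70, -0.68, -0.70 and -0.84 for Bscl2. In leave-outs Bscl2, eWAT over BAT, ran from -0.0042 to 0.16 and Plin2, iWAT over eWAT, from -0.47 to 0.20; without eWAT mice 14 and 15 the latter was 0.20. Calls over all symbols between iWAT and eWAT numbered 9625 and 9479 on the RPKM scale, 9644 with row length, 13605 with transcripts summed, 737 of 5733 on identical rows and 1311 with the minimum fold; between the other depots they numbered 7206 (iWAT, BAT) and 7920 (eWAT, BAT) with it and 3888 of 5733 on identical rows (eWAT, BAT). The causes were not tested. Depth limits Cideb in white adipocytes and Fitm1.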
